A study of Rattus norvegicus with 12 samples.

Results

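The forkhead genes of rat tibial cartilage were taken as every transcript cluster whose annotation gives a single gene symbol beginning with Fox, followed by a letter from a to s and a digit, with the brightest cluster kept for each gene. This gave 28 genes in 29 clusters, of 14300 genes and 27342 clusters on the array. RefSeq lists 45 protein-coding rat genes with such a symbol, and the other 17, among them Foxc1, Foxc2, Foxf1, Foxf2, Foxj1 and Foxp2, were not analysed here. One value was used per gene and array, a log2 expression value, on which a difference of 1 is a 2-fold difference. Because each cluster has its own probes, values were compared between zones within a gene and not between genes.

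Total RNA came from the proximal tibial epiphysis of 8 Sprague-Dawley rats 10 days old, the age at which a secondary ossification center has begun to split articular from growth plate cartilage. Frozen sections were cut by hand with a razor blade into 3 zones. From articular cartilage came the superficial zone, abbreviated SZ, and the intermediate/deep zone, abbreviated IDZ, and from growth plate cartilage the resting zone, abbreviated RZ. There were 4 arrays for each. An SZ sample was both tibias of 1 animal, and an IDZ or RZ sample pooled 2 animals, so that equally numbered IDZ and RZ samples share their animals and the SZ animals were 4 of those 8. No animal was treated or carried an engineered allele, and the zones are tissue layers and not sorted cells. Fewer cells of a type and less RNA per cell can therefore not be told apart in these values.

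Forkhead proteins bind DNA through a winged-helix domain that reads sequences related to GTAAACA. FoxO proteins are turned off by insulin and growth factor signaling, when Akt or Sgk kinases phosphorylate them and 14-3-3 proteins hold them in the cytoplasm. Foxm1 drives genes of mitosis, FoxA proteins open closed chromatin, and FoxP proteins act mostly as repressors. In mouse cartilage, FoxO factors maintain the joint surface and its lubricin, FoxA2 and FoxA3 promote chondrocyte hypertrophy, and Foxp1, Foxp2 and Foxp4 restrain it.

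The motif was searched in the 300 bases around each RefSeq start site (250 bases before it and 50 after it, build GRCr8), which were found for 20 of the 28 genes. The 7 letters GTAAACA, or their complement TGTTTAC, occurred in the window of 1 of these 20 genes (5%), against 3.76% of 27457 promoters of the same length. The shorter TAAACA or TGTTTA, which lies inside the longer motif, occurred in 2 (10%), Foxp1 and Foxp3, against 13.7% of all promoters. The gene with the longer match was Foxp1, which also had the largest differences between zones, and its window is shown with the match in capitals. It lies on chr4:133353231-133353530, minus strand, and the match begins at position -164 from the start site. RefSeq places this start within the span of the gene, which has several transcripts.

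Foxp1: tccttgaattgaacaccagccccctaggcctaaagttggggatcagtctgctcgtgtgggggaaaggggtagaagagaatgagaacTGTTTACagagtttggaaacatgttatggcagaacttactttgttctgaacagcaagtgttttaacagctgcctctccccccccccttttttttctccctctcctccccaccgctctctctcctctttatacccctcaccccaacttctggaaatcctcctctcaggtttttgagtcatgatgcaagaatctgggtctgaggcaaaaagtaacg

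Among genes known as FoxO targets, 5 of 32 with a window held the 7 letters (15.6%), and among genes known as Foxm1 targets 1 of 20 did (5%). Short stretches around these 6 matches are given to show the letters that forkhead proteins read, with the match in capitals, since the levels of these genes are described further on. They lie on chr3:135819828-135819854 plus strand for Bcl2l11, chr12:6128887-6128913 minus strand for Insr, chr1:230126503-230126529 plus strand for Klf9, chr14:82428305-82428331 plus strand for Pik3ip1, chr5:151817021-151817047 plus strand for Trim63 and chr10:84473164-84473190 minus strand for Top2a. A match is a description of the sequence and no evidence of binding.

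Bcl2l11: agtcactaggGTAAACAcgccggggtg
Insr: cgggccgcgtTGTTTACtggccggagt
Klf9: gggggagaaaGTAAACAgagttgaatc
Pik3ip1: aaagagaggcTGTTTACcagaagagca
Trim63: aatctgttctTGTTTACgacccccatt
Top2a: attgattgctGTAAACAgagcaaatga

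SZ replicate 4 stood apart from the other arrays. Its middle spread of values over all clusters, the interquartile range, was 2.24, against 2.50 to 2.91 on the other 11 arrays, and it was the highest SZ array for 18 of the 28 forkhead genes and the lowest for 8. Chondrocyte markers averaged 11.79 to 12.17 on SZ arrays, 12.90 to 12.97 on IDZ arrays and 12.87 to 13.00 on RZ arrays. Of these markers, 7 of 8 were lower in SZ than in each of the other zones at a limma adjusted p under 0.05. The exception was Col2a1, which passed in neither comparison (SZ minus IDZ -0.19, adjusted p = 0.111, and SZ minus RZ -0.09, adjusted p = 0.53). Markers of other cells were higher in SZ than in both other zones, for 7 of 8 endothelial, 7 of 8 mural, 10 of 10 macrophage and 6 of 6 fibrous tissue genes, while none of 5 lymphocyte or 4 erythroid genes passed the test in any comparison. The remaining mural gene, Cspg4, which chondrocytes also express, was lower in SZ than in both. Of 5 bone genes, Col1a1 was higher and Sp7 lower in SZ than in both other zones. As a guide to low values, 95% of 1269 olfactory and vomeronasal receptor clusters stayed under 6.48 in their highest zone, which is called the receptor level here.

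Of the 28 forkhead genes, 13 differed between zones in at least 1 comparison at a limma adjusted p under 0.05, which is what "called", "higher" and "lower" mean here, and 15 in none. Between SZ and IDZ, 7 genes were called (25%, against 23% of all clusters), with Foxp1, Foxn3, Foxj2 and Foxo1 higher in SZ and Foxo4, Foxa2 and Foxa3 lower. The share of forkhead genes was therefore near that of all clusters. Between IDZ and RZ, 5 genes were called (17.9%, against 6.73% of all clusters), with Foxp1 and Foxa2 higher in IDZ and Foxo1, Foxm1 and Foxo4 lower. Between SZ and RZ, 10 genes were called (35.7%, against 21.1% of all clusters), with 7 higher in SZ (Foxp1, Foxn3, Foxj2, Foxo3, Foxs1, Foxk1 and Foxp4) and 3 lower (Foxo4, Foxa3 and Foxd1). By direction, the background was 11.8% higher and 11.2% lower between SZ and IDZ, 2.78% and 3.95% between IDZ and RZ, and 10% and 11.1% between SZ and RZ. Each zone enters 2 of the 3 comparisons, so these counts are not independent of each other.

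Without SZ replicate 4 the same 7 genes were called between SZ and IDZ and 12 more joined them, 19 in all (7 higher and 12 lower in SZ), while the share of all clusters went up to 41.6%. By direction, the background was then 18.1% higher and 23.5% lower in SZ. Between IDZ and RZ the 5 genes stayed and Foxj2, Foxo3 and Foxp3 joined them on the side higher in IDZ, against 14.4% of all clusters (5.75% higher and 8.61% lower in IDZ). Between SZ and RZ the 10 stayed and Foxi3 joined them on the side lower in SZ, against 28.8% of all clusters (13.5% higher and 15.3% lower in SZ).

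With a minimum of 2-fold added and the brightest cluster per gene, Foxp1 was the only forkhead gene in each of the 3 comparisons, against 3.94%, 0.918% and 4.54% of all clusters for SZ and IDZ, IDZ and RZ, and SZ and RZ. Of all clusters, 2.96%, 0.519% and 3.19% were higher in the zone named first and 0.977%, 0.399% and 1.35% lower. The median difference over the 28 genes was -0.15 for SZ minus IDZ, 0.11 for IDZ minus RZ and -0.07 for SZ minus RZ, and over all clusters it was -0.08, 0.03 and -0.03. The second cluster of Foxn3, described further on, also passed 2-fold for SZ against IDZ and against RZ.

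**Figure D1:**
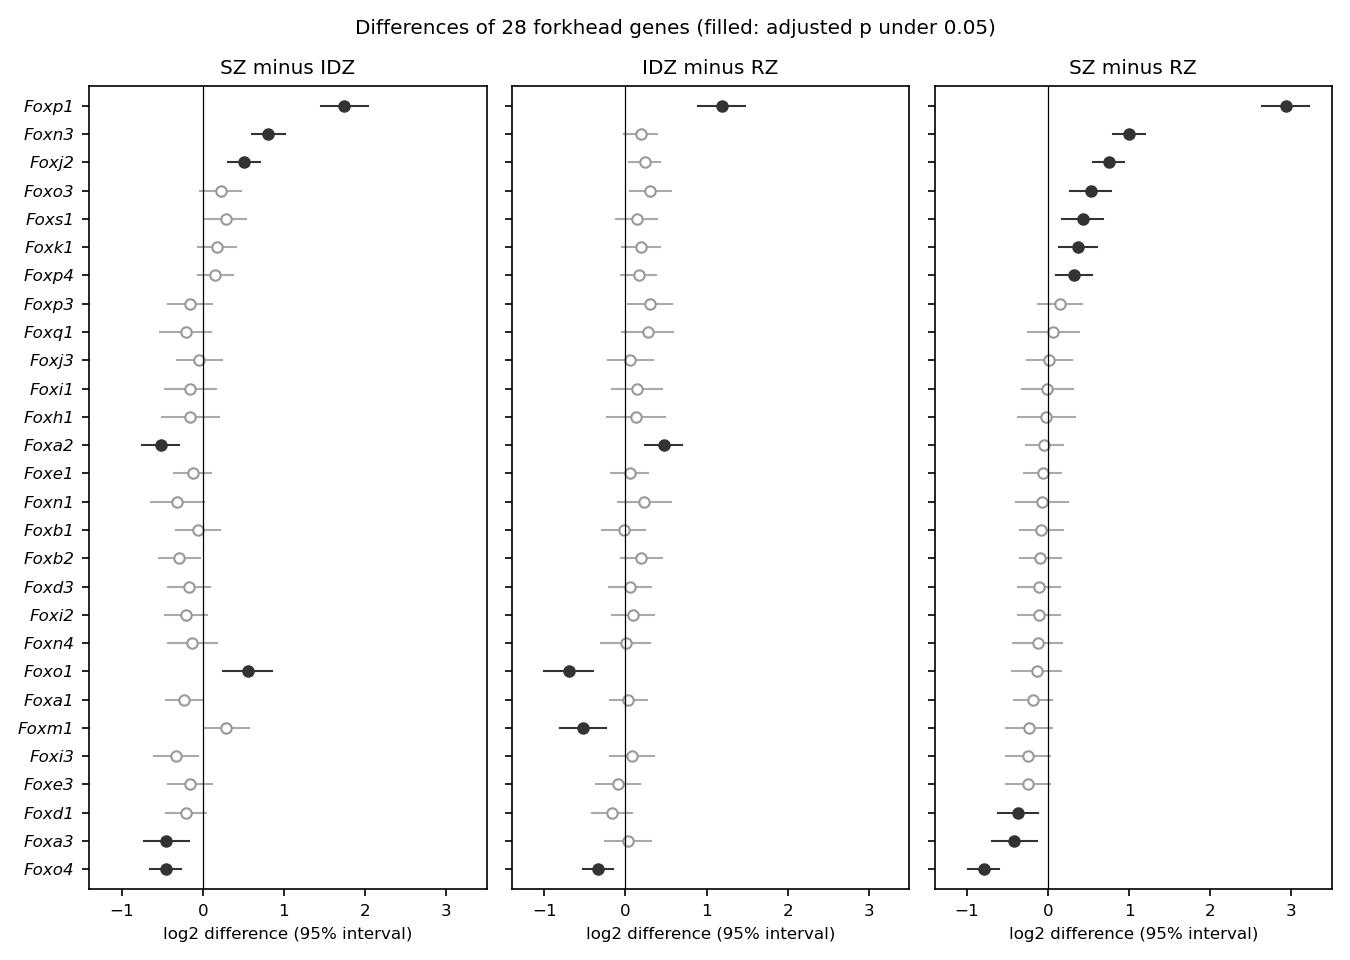
Log2 differences of the 28 forkhead genes for SZ minus IDZ, IDZ minus RZ and SZ minus RZ, with 95% intervals as lines and filled points for a limma adjusted p under 0.05. Foxp1 lies to the right of 1 in all 3 panels, and the 15 genes called in no comparison have largest differences of 0.06 to 0.32.

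Foxp1, a repressor that holds chondrocytes back from hypertrophy in mouse and is also used by many other cell types, had the largest zonal difference of the 28 genes. Its log2 expression was 10.38, 10.56, 10.63 and 10.04 in SZ, 8.64, 8.71, 8.74 and 8.53 in IDZ, and 7.55, 7.64, 7.13 and 7.56 in RZ. The zones formed 3 separate levels in the order SZ, IDZ, RZ with no overlap between arrays. The means were 10.40 ± 0.26 in SZ, 8.66 ± 0.09 in IDZ and 7.47 ± 0.23 in RZ (SD, n = 4 each). SZ exceeded IDZ by 1.75 ± 0.14 (SE, 3.35-fold, limma adjusted p = 2.69e-07), and IDZ exceeded RZ by 1.19 ± 0.14 (2.27-fold, adjusted p = 5.58e-05). From SZ to RZ the difference was 2.93 ± 0.14, or 7.63-fold (adjusted p = 6.4e-10). Without SZ replicate 4, the lowest SZ array for this gene, the difference of SZ from IDZ was 1.87 and that from RZ 3.05.

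The fibrous, endothelial, mural and macrophage marker lists were, like Foxp1, highest in SZ. On single arrays the fibrous tissue list averaged 10.53 to 11.16 in SZ, 7.34 to 7.96 in IDZ and 6.22 to 6.56 in RZ. This is the same order of zones as for Foxp1, and 3 of the 6 fibrous genes were also higher in IDZ than in RZ. Those 3 were Dpt, Col3a1 and Postn, which the study lists among its top genes up in IDZ over RZ on these same arrays. It also lists Tnmd, Aspn and Dpt among its top genes up in SZ over IDZ. The order of the fibrous list was thus largely known in advance and is no independent comparison for Foxp1. The endothelial list averaged 8.49 to 9.05 in SZ, 6.61 to 6.96 in IDZ and 6.45 to 6.66 in RZ, and the mural list 9.22 to 9.57 in SZ, 7.41 to 7.81 in IDZ and 7.24 to 7.44 in RZ. The macrophage list averaged 8.57 to 9.27 in SZ, 6.77 to 7.04 in IDZ and 6.57 to 7.18 in RZ. Between IDZ and RZ none of the endothelial or macrophage genes and 1 mural gene were called. The median differences there were 0.32 for the endothelial, 0.16 for the macrophage and 0.29 for the mural list. The other forkhead genes with their highest mean in SZ were measured in the same samples. The part of these cell types in the differences of Foxp1 or of those genes was not tested. Erythroid genes averaged 7.39 to 10.10 among the SZ arrays alone, and SZ replicate 4 was the lowest of these.

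**Figure D2:**
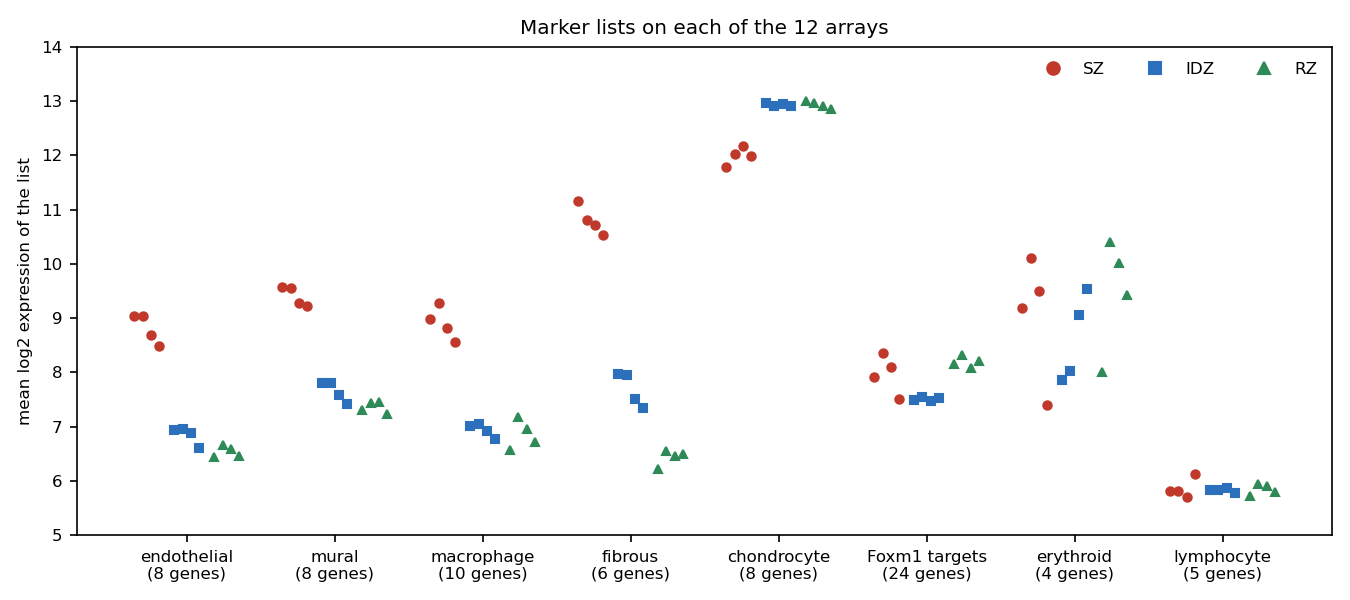
Mean log2 expression of the endothelial, mural, macrophage, fibrous, chondrocyte, erythroid and lymphocyte lists and of the Foxm1 targets on each array. SZ is shown as red circles, IDZ as blue squares and RZ as green triangles. The SZ arrays lie above all others for endothelial, mural, macrophage and fibrous genes and below all others for chondrocyte genes.

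Foxp4, a near relative that can pair with Foxp1, differed far less. It averaged 8.34 ± 0.19 in SZ, 8.18 ± 0.08 in IDZ and 8.02 ± 0.08 in RZ, and only SZ minus RZ passed the test (0.32 ± 0.10 SE, limma adjusted p = 0.0349). The SZ and RZ arrays overlapped, and the call was lost when any 1 of SZ replicates 1 to 3 or of the 4 RZ replicates was left out. Foxp3, the factor of regulatory T cells, averaged 6.86 ± 0.28 in SZ, 7.02 ± 0.13 in IDZ and 6.72 ± 0.10 in RZ and was called in no comparison. Lymphocyte markers averaged 5.70 to 6.12 in SZ, 5.77 to 5.87 in IDZ and 5.72 to 5.94 in RZ.

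Foxn3, a repressor first found through its rescue of yeast checkpoint mutants, came next in size. It read 9.26, 9.20, 9.25 and 8.94 in SZ, 8.29, 8.45, 8.44 and 8.24 in IDZ, and 8.21, 8.19, 8.19 and 8.08 in RZ. All SZ arrays lay above the other 8, and IDZ and RZ were close to each other. SZ exceeded IDZ by 0.81 ± 0.09 (SE, 1.75-fold, limma adjusted p = 1.48e-05) and RZ by 1.00 ± 0.09 (1.995-fold, adjusted p = 1.28e-06). IDZ minus RZ was 0.19 (95% interval -0.01 to 0.39, adjusted p = 0.299). Foxn3 was the one forkhead gene with a second cluster, and this one read 9.09 to 9.53 in SZ, 8.00 to 8.18 in IDZ and 7.59 to 7.95 in RZ. There SZ minus IDZ was 1.25 (2.39-fold) and SZ minus RZ 1.61 (3.05-fold), so that both clusters gave the same direction and the second the larger size.

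Foxj2, a transcriptional activator, followed the same order of zones. Its values were 9.32, 9.55, 9.58 and 9.27 in SZ, 8.88, 8.93, 8.93 and 8.95 in IDZ, and 8.74, 8.64, 8.71 and 8.64 in RZ. The arrays of the 3 zones did not overlap in any pair of zones, which held for 6, 10 and 7 of the 28 genes for SZ and IDZ, IDZ and RZ, and SZ and RZ, against 22.3%, 20.2% and 22% of all clusters. SZ exceeded IDZ by 0.51 ± 0.09 (SE, 1.42-fold, limma adjusted p = 6.78e-04) and RZ by 0.75 ± 0.09 (1.68-fold, adjusted p = 1.66e-05). IDZ minus RZ was 0.24 and did not pass (adjusted p = 0.151). Its relative Foxj3 averaged 9.41 ± 0.32 in SZ, 9.46 ± 0.07 in IDZ and 9.40 ± 0.10 in RZ, with 95% intervals of -0.32 to 0.23 for SZ minus IDZ and -0.27 to 0.29 for SZ minus RZ.

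**Figure D3:**
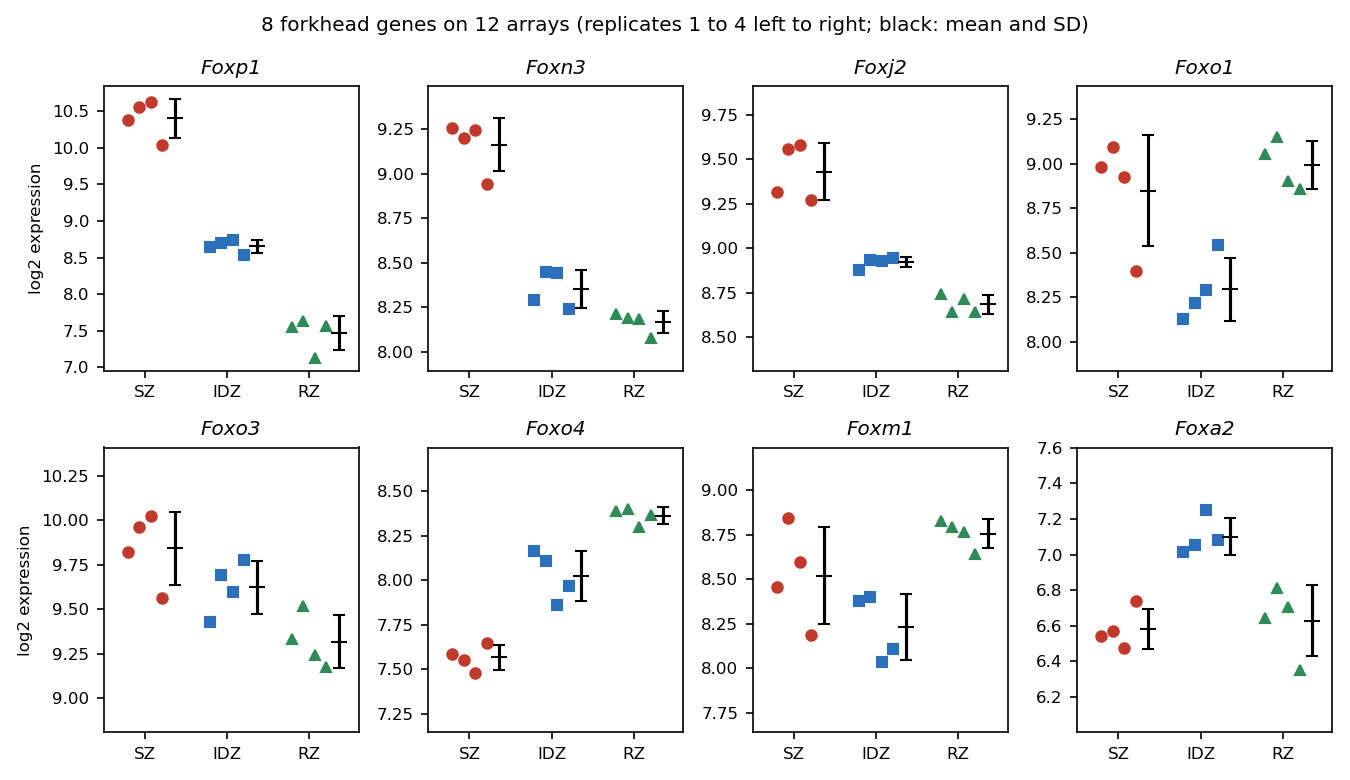
Log2 expression of 8 forkhead genes on each of the 12 arrays (SZ red circles, IDZ blue squares, RZ green triangles, replicates 1 to 4 from left to right), with the mean and SD in black and an axis range of its own for each gene. Foxp1, Foxn3, Foxj2 and Foxo3 have their highest mean in SZ, Foxo4, Foxo1 and Foxm1 in RZ and Foxa2 in IDZ.

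The 3 FoxO genes measured had 3 different orders of zone means, though not every step was called. Foxo1 had its lowest mean in IDZ, Foxo3 its highest mean in SZ, and Foxo4 its highest mean in RZ. All 3 encode factors of stress resistance, cell cycle arrest and autophagy with largely shared targets.

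Foxo1 read 8.98, 9.09, 8.93 and 8.40 in SZ, 8.13, 8.22, 8.29 and 8.54 in IDZ, and 9.06, 9.15, 8.90 and 8.86 in RZ. Every RZ array lay above every IDZ array, and 3 of 4 SZ arrays did so as well. SZ replicate 4 fell inside the IDZ range. SZ minus IDZ was 0.56 ± 0.14 (SE, 1.47-fold, limma adjusted p = 0.0099) and IDZ minus RZ was -0.70 ± 0.14 (1.62-fold, adjusted p = 0.0071). SZ minus RZ was -0.14 (95% interval -0.45 to 0.16), which did not pass the test. Without SZ replicate 4, SZ minus IDZ was 0.71.

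Foxo3 read 9.82, 9.96, 10.03 and 9.56 in SZ, 9.43, 9.69, 9.60 and 9.78 in IDZ, and 9.33, 9.52, 9.25 and 9.18 in RZ. IDZ arrays overlapped both neighbors, and SZ and RZ arrays did not overlap. Only SZ minus RZ was called, at 0.52 ± 0.12 (SE, 1.44-fold, limma adjusted p = 0.00439). Without SZ replicate 4 the steps from SZ to IDZ and from IDZ to RZ also passed, at 0.31 and 0.30 (adjusted p = 0.0273 and 0.0483).

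Foxo4 ran the opposite way, with 7.58, 7.55, 7.48 and 7.65 in SZ, 8.16, 8.11, 7.86 and 7.97 in IDZ, and 8.39, 8.40, 8.30 and 8.36 in RZ. The arrays of the 3 zones did not overlap. SZ minus IDZ was -0.46 ± 0.09 (SE, limma adjusted p = 0.00137), IDZ minus RZ -0.34 ± 0.09 (adjusted p = 0.0321) and SZ minus RZ -0.80 ± 0.09 (1.74-fold, adjusted p = 6.82e-06). Foxo4 and Foxp1 were the 2 forkhead genes called in all 3 comparisons. The step from IDZ to RZ was the less firm one, since it was lost without any 1 of IDZ replicates 2 to 4 or of the RZ replicates.

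Of 25 measured genes that control FoxO proteins, 7 were higher and 3 lower in SZ than in IDZ, 2 were higher and 1 lower in IDZ than in RZ, and 5 were higher and 5 lower in SZ than in RZ. Of all clusters, 11.8% were higher and 11.2% lower in the first comparison, 2.78% and 3.95% in the second, and 10% and 11.1% in the third. The median differences of the regulators were 0.14, -0.14 and -0.07. Sgk1, a kinase that inactivates FoxO proteins, averaged 9.88 ± 0.19 in SZ, 8.78 ± 0.10 in IDZ and 8.33 ± 0.08 in RZ (SD, n = 4 each), with SZ above IDZ by 1.10. Pik3r1, the regulatory subunit of PI3 kinase, was higher in SZ than in IDZ by 0.74 and than in RZ by 1.39, and higher in IDZ than in RZ by 0.64. Sirt2, a deacetylase that acts on FoxO proteins, was higher in SZ than in IDZ by 0.78 and than in RZ by 0.88, and the 14-3-3 gene Ywhaz by 0.81 and 0.50. The other 14-3-3 genes were not alike. Ywhab was also higher in SZ than in both, Ywhag and Ywhah were higher in SZ than in IDZ alone, and Ywhae was called in no comparison. Ywhaq was lower in SZ than in RZ (-0.26) and lower in IDZ than in RZ (-0.41). Irs1, which carries the insulin and IGF signal from the receptor, was lower in SZ, with a difference of -0.83 from IDZ and -0.74 from RZ. Akt1 averaged 11.59 ± 0.11 in SZ, 11.66 ± 0.06 in IDZ and 11.77 ± 0.04 in RZ and was called in no comparison.

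Of 40 measured genes known as FoxO targets, 18 were higher and 6 lower in SZ than in IDZ, 2 were higher and 8 lower in IDZ than in RZ, and 15 were higher and 5 lower in SZ than in RZ. The shares of all clusters were 11.8% higher and 11.2% lower, then 2.78% and 3.95%, then 10% and 11.1%. The median differences of the targets were 0.28, -0.10 and 0.12. Prg4, the lubricin of the joint surface, had the largest differences of the list, with 12.78 ± 0.19 in SZ, 10.31 ± 0.97 in IDZ and 5.68 ± 0.50 in RZ (SZ minus IDZ 2.47, IDZ minus RZ 4.62). Its RZ mean was under the receptor level, so the size of its differences from RZ is less certain than their direction. Pdk4, a kinase that turns cells from glucose to fat oxidation, averaged 8.12 ± 0.52 in SZ, 6.49 ± 0.17 in IDZ and 6.75 ± 0.18 in RZ. Angptl4, a secreted inhibitor of lipoprotein lipase, was higher in SZ by 1.17 than in IDZ and by 1.24 than in RZ. The Angptl4 means in IDZ (6.43) and RZ (6.35) were under the receptor level, and its SZ arrays ran from 7.08 to 8.47. The IDZ mean of Pdk4 was close to that level, so the size of the differences of both genes is uncertain.

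Bcl6, a transcriptional repressor, and Cdkn1c, a cell cycle inhibitor, had the reverse order within that list. Bcl6 averaged 7.18 ± 0.42 in SZ, 7.74 ± 0.16 in IDZ and 8.96 ± 0.20 in RZ. Cdkn1c averaged 9.14 ± 0.12 in SZ, 9.87 ± 0.08 in IDZ and 10.78 ± 0.05 in RZ, and both genes were called in all 3 comparisons. Of the 5 FoxO targets whose start window is printed above, Bcl2l11, which promotes apoptosis, was 0.82 higher in SZ than in IDZ and differed by -0.57 between IDZ and RZ. Trim63, a ubiquitin ligase of muscle atrophy, was lower in SZ than in IDZ, with a difference of -0.48, while Insr, Klf9 and Pik3ip1 were called in no comparison. Neither Bcl2l11 nor Trim63 exceeded the receptor level in any zone, so the size of their differences is uncertain.

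**Figure D4:**
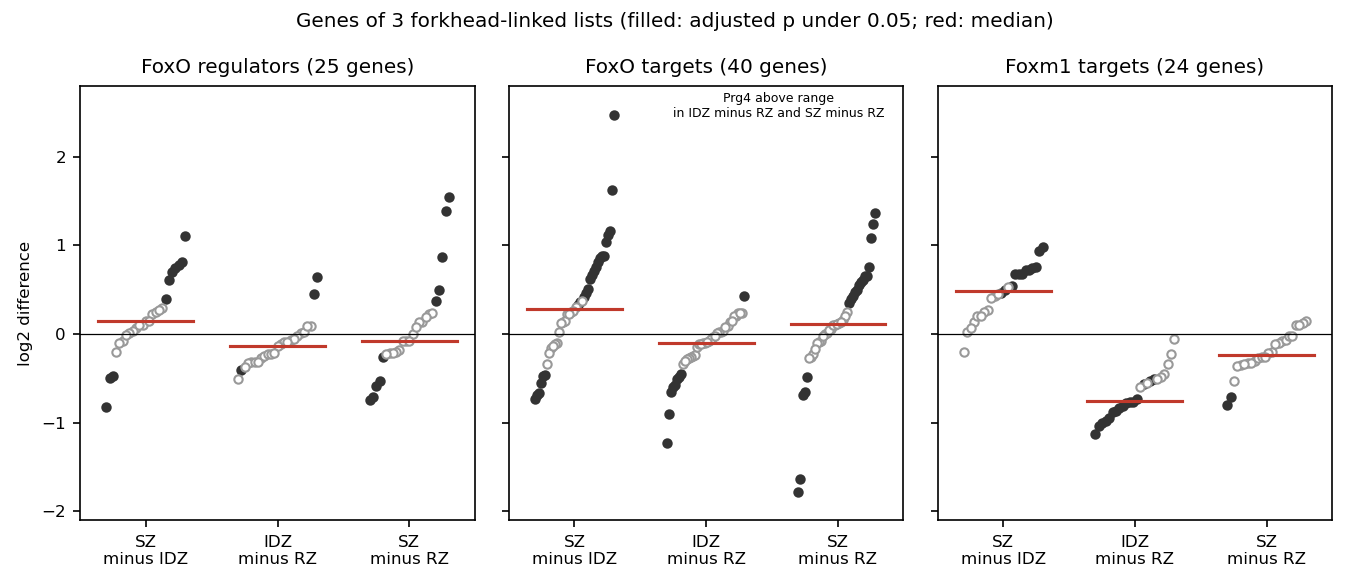
Log2 differences of the genes that regulate FoxO proteins, of FoxO targets and of Foxm1 targets in the 3 comparisons, with filled points for a limma adjusted p under 0.05 and the median in red. Foxm1 targets lie mostly above 0 for SZ minus IDZ (median 0.48) and below 0 for IDZ minus RZ (median -0.75), and Prg4 lies above the axis range in 2 comparisons.

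Foxm1, the activator of genes for the G2 phase and mitosis, had its lowest mean in IDZ. It read 8.46, 8.84, 8.60 and 8.19 in SZ, 8.38, 8.40, 8.04 and 8.11 in IDZ, and 8.83, 8.79, 8.77 and 8.64 in RZ. All RZ arrays lay above all IDZ arrays, while SZ arrays overlapped both. IDZ minus RZ was -0.52 ± 0.13 (SE, 1.44-fold, limma adjusted p = 0.0247), and the call was lost without IDZ replicate 3 or 4 or without RZ replicate 1, 2 or 3 (adjusted p = 0.059 to 0.0928) and with plain one-way contrasts (adjusted p = 0.0705). SZ minus IDZ was 0.29 (adjusted p = 0.134) with all arrays and 0.40 (adjusted p = 0.012) without SZ replicate 4. SZ minus RZ was -0.24 and did not pass (adjusted p = 0.26).

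Genes known as Foxm1 targets were mostly lower in IDZ than in RZ. Of 24 measured, 12 were higher and none lower in SZ than in IDZ (median 0.48), none were higher and 16 lower in IDZ than in RZ (median -0.75), and none were higher and 2 lower in SZ than in RZ (median -0.24). Skp2, a ubiquitin ligase subunit, was one of those 2 and had its lowest mean in SZ (8.00, against 8.20 in IDZ and 8.71 in RZ). The shares of all clusters in these comparisons were 11.8% higher and 11.2% lower, then 2.78% and 3.95%, then 10% and 11.1%. The Foxm1 targets averaged 7.52 to 8.35 on SZ arrays, 7.48 to 7.54 on IDZ arrays and 8.08 to 8.32 on RZ arrays. SZ replicate 4 was the lowest SZ array and lay inside the IDZ range. Cdc20, an activator of the anaphase-promoting complex, averaged 8.08 ± 0.48 in SZ, 7.32 ± 0.14 in IDZ and 8.44 ± 0.22 in RZ. Ccnb1, the mitotic cyclin, differed by 0.73 for SZ minus IDZ and -1.04 for IDZ minus RZ. The mitotic kinase Plk1 averaged 8.29 ± 0.36 in SZ, 7.61 ± 0.12 in IDZ and 8.62 ± 0.14 in RZ, and the spindle checkpoint kinase Bub1 differed by 0.98 and -0.88. The mitotic kinesin Kif20a was called between IDZ and RZ alone, at -0.98. Top2a, whose window is printed above, encodes a topoisomerase that untangles chromosomes and differed by 0.67 and -0.77.

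The FoxA genes had their highest means in IDZ, but so did 13 of the 15 forkhead genes called in no comparison. Of the FoxA genes, only Foxa2 was called higher in IDZ than in RZ. Foxa2 read 6.54, 6.57, 6.47 and 6.74 in SZ, 7.01, 7.06, 7.25 and 7.08 in IDZ, and 6.65, 6.81, 6.71 and 6.35 in RZ. Every IDZ array lay above every array of the other zones, which overlapped each other. SZ minus IDZ was -0.52 ± 0.11 (SE, 1.43-fold, limma adjusted p = 0.00228), and IDZ minus RZ was 0.47 ± 0.11 (1.39-fold, adjusted p = 0.0154). The difference from RZ missed the threshold without IDZ replicate 3 (adjusted p = 0.062) or RZ replicate 4 (adjusted p = 0.0522). The SZ mean (6.58) and the RZ mean (6.63) were close to the receptor level of 6.48.

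Foxa3 averaged 7.07 ± 0.26 in SZ, 7.52 ± 0.14 in IDZ and 7.49 ± 0.16 in RZ. IDZ and RZ arrays overlapped, and their difference was 0.03 (95% interval -0.25 to 0.31). It was lower in SZ than in IDZ (-0.45, limma adjusted p = 0.0205) and than in RZ (-0.42, adjusted p = 0.0315), and both calls were lost without SZ replicate 1, its lowest array (adjusted p = 0.0675 and 0.106). The call against IDZ was also lost without IDZ replicate 1 or 3, and the call against RZ without RZ replicate 1, 2 or 4. Foxa1, an endoderm factor, averaged 5.67 ± 0.14 in SZ, 5.90 ± 0.19 in IDZ and 5.86 ± 0.08 in RZ, below the receptor level, and was called in no comparison with all arrays.

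Of 8 measured hypertrophy genes linked to FoxA factors, 1 was higher and 2 lower in SZ than in IDZ, none were higher and 3 lower in IDZ than in RZ, and 1 was higher and 4 lower in SZ than in RZ. The shares of all clusters were 11.8% higher and 11.2% lower, then 2.78% and 3.95%, then 10% and 11.1%. Mmp13, a collagenase, averaged 11.75 ± 0.60 in SZ, 9.46 ± 0.83 in IDZ and 8.72 ± 1.12 in RZ. Col10a1, the collagen of hypertrophic cartilage, averaged 6.99 ± 0.38 in SZ, 7.81 ± 0.24 in IDZ and 8.30 ± 0.45 in RZ, and was lower in SZ than in IDZ (-0.82) and than in RZ (-1.31). Alpl, the mineralization phosphatase, averaged 8.71 ± 0.12 in SZ, 8.70 ± 0.07 in IDZ and 10.30 ± 0.17 in RZ. Runx2, the driver of hypertrophy, was lower in both articular zones than in RZ, with differences of -1.19 for SZ and -1.24 for IDZ. Mapk14 was called between IDZ and RZ alone, at -0.58 (limma adjusted p = 0.0489). Ihh, the hedgehog ligand of prehypertrophic cells, was lower in SZ than in IDZ (-0.42) and than in RZ (-0.51).

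Foxs1, Foxk1 and Foxd1 were called between SZ and RZ alone. Foxs1, described in mouse in cells around vessels and in sensory neurons, averaged 7.28 ± 0.27 in SZ, 7.00 ± 0.07 in IDZ and 6.86 ± 0.09 in RZ (SZ minus RZ 0.42, limma adjusted p = 0.0173). Mural cell markers were higher in SZ for 7 of 8 genes, led by Rgs5 at 4.50 for SZ minus RZ, while Cspg4 was lower in SZ (-0.60), and their part in the Foxs1 difference was not tested. Foxk1, a repressor of autophagy genes, averaged 9.48 ± 0.14 in SZ, 9.31 ± 0.14 in IDZ and 9.11 ± 0.16 in RZ (SZ minus RZ 0.37, adjusted p = 0.024). Foxd1, a factor of the kidney stroma in mouse, averaged 7.40 ± 0.25 in SZ, 7.61 ± 0.05 in IDZ and 7.77 ± 0.14 in RZ (SZ minus RZ -0.37, adjusted p = 0.0347). None of these 3 held in every fit that left out 1 array. Foxs1 was lost without RZ replicate 4, while Foxk1 was lost without SZ replicate 2 or 3 or RZ replicate 3 or 4, and Foxd1 without replicate 2 or 3 of either zone.

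The genes of cilia provide a further forkhead program, since Foxj1, which was not analysed here, is the factor that switches on motile cilia. Of 15 measured motile cilium genes, 13, all but Tppp3 and Rsph9, did not exceed the receptor level in any zone. In all, 1 was higher and 1 lower in SZ than in IDZ, none were called between IDZ and RZ, and 1 was higher and 2 lower in SZ than in RZ. The shares of all clusters were 11.8% higher and 11.2% lower, then 2.78% and 3.95%, then 10% and 11.1%. The one higher cilium gene was Tppp3, a tubulin-binding protein that is also known in tendon sheath and synovial cells. It averaged 11.17 ± 0.39 in SZ, 7.31 ± 0.38 in IDZ and 6.89 ± 0.20 in RZ. The radial spoke gene Rsph9 was lower in SZ than in IDZ (-0.27) and than in RZ (-0.47), and Rsph1 was lower in SZ than in RZ (-0.37).

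The 15 genes called in no comparison with all arrays were Foxa1, Foxb1, Foxb2, Foxd3, Foxe1, Foxe3, Foxh1, Foxi1, Foxi2, Foxi3, Foxj3, Foxn1, Foxn4, Foxp3 and Foxq1. Many of them are factors of other tissues, such as Foxe1 of the thyroid, Foxe3 of the lens, Foxi1 of the inner ear and kidney, and Foxn1 of the thymic epithelium. Their zone means ran between 5.50 and 9.46, and Foxa1, Foxi1, Foxi3 and Foxq1 did not exceed the receptor level in any zone. None of the 13 called genes was among those 4. IDZ had the highest mean in 13 of the 15 (86.7%), against 51.5% of the 19092 clusters called in no comparison. Among the 13 called genes, 7 had the order SZ, IDZ, RZ from high to low, Foxo4 and Foxd1 the order RZ, IDZ, SZ, Foxa2 and Foxa3 had their highest mean in IDZ, and Foxo1 and Foxm1 their lowest there.

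SZ replicate 4 took part in the fit that divided the genes into called and uncalled ones, so the following values are a description of that division. The array lay above the mean of the other SZ arrays for 14 of the 15 (median 0.45, from -0.53 for Foxj3 to 0.74 for Foxh1), and for 6 of the 13 called genes (median -0.21, from -0.60 for Foxo1 to 0.34 for Foxs1). Over all clusters, the median of the same quantity was -0.30 for those above the median level and 0.22 for the rest. Without this array, 9 of the 15 were called lower in SZ than in IDZ, against 23.5% of all clusters. The share among only those clusters called in no comparison with all arrays was not taken. The largest difference of the 9 genes was -0.49 for Foxn1 (limma adjusted p = 0.00149), followed by -0.42 for Foxi3 and -0.41 for Foxb2. Foxa1, Foxi1, Foxi3 and Foxq1, which are among the 9, did not exceed the receptor level in any zone. With all arrays the Foxn1 means in SZ (6.27) and RZ (6.35) were also under that level. The size of the differences of these genes is therefore uncertain.

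**Figure D5:**
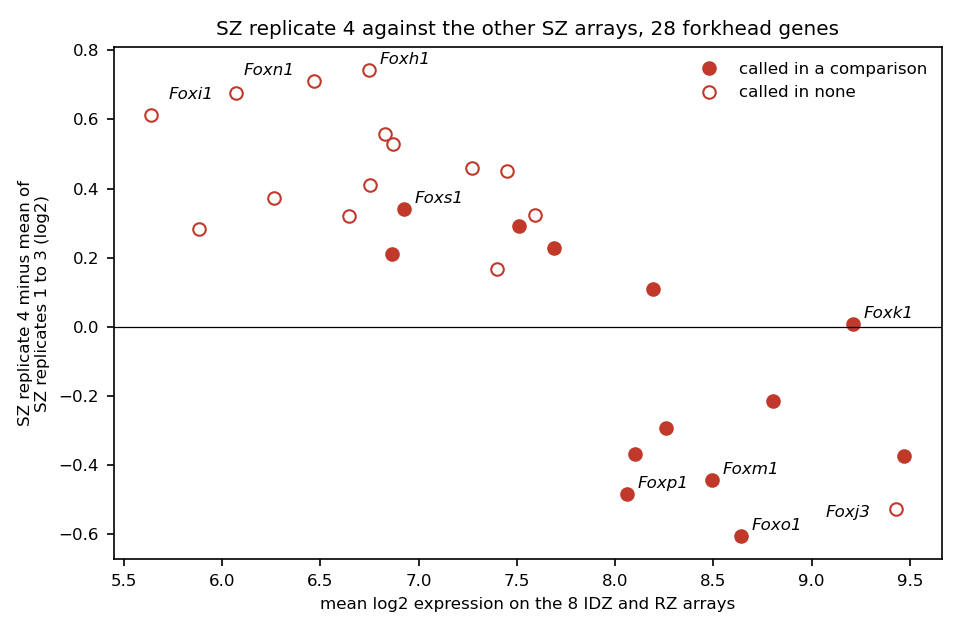
Log2 expression on SZ replicate 4 minus the mean of SZ replicates 1 to 3 for each of the 28 forkhead genes, against the mean log2 expression on the 8 IDZ and RZ arrays, with filled points for genes called in a comparison. The difference lies between 0.17 and 0.74 for 14 of the 15 uncalled genes, and Foxj3 is the exception at -0.53.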

How the data were processed

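RNA of 12 cartilage samples was hybridised to Affymetrix Rat Gene 1.0 ST arrays. The deposited log2 expression values were used as they stand. Robust multi-array averaging is the authors' stated method, run in Partek Genomics Suite 6.6, which corrects background, equalizes the distributions of arrays by quantiles and summarizes the probes of a cluster by median polish. No further normalization was applied, and probe intensities were not processed again. Quantile normalization can hide a shift shared by all genes. The deposited values of the 12 arrays were nonetheless not equal in distribution, with interquartile ranges of 2.24 to 2.91, for a reason not given in the sources used here. Precision is limited by having 4 arrays per zone.

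The annotation gives 1 symbol for 15068 clusters, several for 323 and none for 11951. One cluster with a forkhead symbol beside another gene was left out. The symbol of all 28 gene IDs was the same in RefSeq.

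For each pair of zones a contrast was fitted in limma 3.58.1 under R 4.3.3, on all 12 arrays with moderated variances. The p-values are two-sided, with Benjamini-Hochberg adjustment over 27342 clusters in each comparison. Because the methods use no block for animals, none was used. Per the labels, equally numbered IDZ and RZ samples share animals, and the correlation of their deviations was 0.02, 0.02, 0.03 and 0.21 over all clusters. The fit was tested on simulated data.

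All forkhead genes were named. Array values were given for those called with at least 1.5-fold and then for the next largest up to 8, and from each list up to 5 called genes with the largest differences were named. Akt1, Bcl2l11, Trim63, Insr, Klf9, Pik3ip1, Top2a, Skp2, Cspg4, Col1a1, Sp7 and Rgs5 were added after their values were seen. So were Col2a1, Ywhab, Ywhag, Ywhah, Ywhae, Ywhaq, Tnmd, Aspn, Dpt, Col3a1 and Postn. Ihh was named beyond the 5 of the hypertrophy list. The members and lists were chosen with earlier results of these data known. A planned check on protein sequences was not made. The alternatives were other variance models, only 2 zones, a 2-fold minimum, a filter on dim clusters, array centring, renewed quantile normalization, every cluster of a gene, replicate blocks and leaving out each array.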

Additional observations from a re-analysis of the deposited data

Results flagged for a closer look

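Among 84 sets of 4 arrays (28 forkhead genes in 3 zones), 2 had 1 array far from the other 3 by Dixon's gap, and chance gives about 1 in 20. Both were SZ replicate 4. Foxa1, an endoderm factor, read 5.89 on this array and 5.58 to 5.63 on the other SZ arrays, a gap of 0.835 of the range, just above Dixon's 95% critical value. Foxb1, a factor of the developing hypothalamus, read 6.99 on it and 6.53 to 6.6 on the other SZ arrays, a gap of 0.841 of the range. The same array had the narrowest spread of values of the 12, and the part of that in these gaps was not tested.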

How the results depend on the processing

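No called forkhead difference changed sign under the alternatives run. Foxp1 kept its call in every comparison and alternative, also at 2-fold. Foxn3, Foxj2 and Foxo4 in their comparisons with SZ, Foxo1, Foxo3 between SZ and RZ, and Foxa2 between SZ and IDZ kept theirs in all alternatives but the 2-fold minimum. That minimum, applied to the brightest cluster of each gene, left 1 gene higher and 0 lower in each comparison, and the second cluster of Foxn3 would add that gene in both comparisons with SZ. With only the 2 zones compared, 4 instead of 2 genes were higher in IDZ than in RZ, and 4 instead of 7 were higher and 1 instead of 3 lower in SZ than in RZ, with Foxa3, Foxd1, Foxk1, Foxp4 and Foxs1 lost. Plain one-way contrasts left 1 gene lower in SZ than in RZ, with Foxa3 and Foxd1 lost, and lost Foxm1 between IDZ and RZ (adjusted p = 0.0705). Renewed quantile normalization gave 4 genes higher in IDZ than in RZ, with Foxj2 and Foxo3 added, and lost Foxo4 there (adjusted p = 0.08). Centring arrays on their medians gave 4 Dixon gaps instead of 2. The causes were not tested.

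Leaving out 1 array at a time gave 4 to 7 genes higher and 2 to 12 lower in SZ than in IDZ, 1 to 5 higher and 1 to 3 lower in IDZ than in RZ, and 4 to 7 higher and 1 to 4 lower in SZ than in RZ. With animal pairs as a random replicate block (consensus correlation -0.14), the IDZ to RZ difference of Foxo4 was lost (adjusted p = 0.0571), leaving 2 genes higher and 2 lower in IDZ. With a fixed replicate block over IDZ and RZ all 5 calls stayed (2 higher and 3 lower), and no block changed another call.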
